A study of Mus musculus with 4 samples.

Results

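The antiviral genes that type I interferon induces were followed in bone marrow-derived macrophages after lentiviral CRISPR-Cas9 targeting of Adcy7, the gene of a membrane adenylyl cyclase that makes cyclic AMP. The set was listed by name and known role, and holds 40 of the 55401 genes in the deposited count table. All 40 were found and all 40 passed the filter on low counts. The Adcy7 knockout group had 2 libraries and the Rosa control group had 2 libraries. The knockout cells were C57BL/6J bone marrow cells given Adcy7-targeted virus on day 1 (multiplicity of infection 30), then differentiated over 5 days. The control cells had the same strain, multiplicity and schedule, and carried virus that cuts the Rosa locus. Both groups had therefore met Cas9, a guide and a high dose of lentivirus, and an untreated group was not analysed here. The labels give batch 1 for every library and do not name the mouse or culture behind each replicate, so a p-value reflects only how far these libraries differ, which may be technical.

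Type I interferons bind the receptor chains Ifnar1 and Ifnar2, and the kinases Jak1 and Tyk2 on those chains start a signal that assembles the complex ISGF3. This complex binds interferon-stimulated response elements in the promoters of antiviral genes. Their products act at each step of a virus life cycle, from blocking membrane fusion to sensing RNA, degrading it, stopping its translation and holding new particles at the cell surface. Macrophages keep many of these genes on at a low level without infection.

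Interferon-stimulated genes of this class often carry the response element core close to the start of transcription, so the promoters were read first. RefSeq promoters on GRCm38.p6 were at hand for 29 of the 40 genes, while the counts are on GRCm39, so the coordinates below belong to the older build. The core searched was GAAANNGAAA on the strand of the gene or TTTCNNTTTC, its reverse complement, in the 250 bases before each start site. It stood before 11 of the 29 genes (37.9%), against 936 of all 27025 genes in the promoter table (3.46%). Counted by promoter, it was in 11 of 36 (30.6%) for the antiviral genes and in 978 of 32851 (2.98%) overall. A match describes these letters and is not a measured binding site. The windows shown are those of genes that lay towards the extremes of the response, form near-identical pairs or hold the most overlapping cores, and capitals mark the cores:
Ifit1 (chr19:34640764-34640853, plus strand): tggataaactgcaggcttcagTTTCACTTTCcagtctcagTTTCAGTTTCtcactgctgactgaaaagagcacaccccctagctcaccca
Rsad2 (chr12:26456523-26456612, minus strand): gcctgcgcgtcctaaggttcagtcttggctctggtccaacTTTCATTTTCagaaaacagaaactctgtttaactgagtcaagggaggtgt
Isg15 (chr4:156200835-156200924, minus strand): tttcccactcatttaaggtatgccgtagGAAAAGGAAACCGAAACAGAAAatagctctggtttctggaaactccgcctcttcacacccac
Ifit3 (chr19:34583367-34583456, plus strand): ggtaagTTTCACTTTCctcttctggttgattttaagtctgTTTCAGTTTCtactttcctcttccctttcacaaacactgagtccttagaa
Ifit3b (chr19:34607763-34607852, plus strand): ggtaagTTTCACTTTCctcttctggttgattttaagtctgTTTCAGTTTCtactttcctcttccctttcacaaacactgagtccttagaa
Oas1a (chr5:120907526-120907579, minus strand): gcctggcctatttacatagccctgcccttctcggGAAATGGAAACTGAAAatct
Oas1g (chr5:120887614-120887665, minus strand): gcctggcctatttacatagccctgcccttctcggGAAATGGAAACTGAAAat
Phf11b (chr14:59341331-59341420, minus strand): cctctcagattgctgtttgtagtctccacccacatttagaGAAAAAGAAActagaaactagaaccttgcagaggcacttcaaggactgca

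Ifit1, with 2 separate cores, was the antiviral gene with the highest fold change in the knockout. Isg15 holds 3 overlapping cores in 1 run of capitals, and Oas1a and Oas1g hold 2 overlapping cores each. The windows of Ifit3 and Ifit3b have the same letters. Phf11b, with 1 core, was among the genes that fell most. Ifit2, the immediate neighbour of Ifit3 on chromosome 19, had no match in either of its 2 promoters. The core was present in 4 of the 8 genes with a promoter that were higher in the knockout, 3 of the 11 that were lower and 4 of the 10 that did not pass the test. The median log2 fold change, Adcy7 knockout over Rosa control, was 0.11 over genes with a core and -0.094 over genes without one. The 11 genes without a promoter entry are in neither median. They were Oas2, Usp18, Dhx58, Zbp1, Mx1, Mx2, Parp9, Parp14, Rtp4, Ifi27l2a and Tor3a. Ifi27l2a (log2 fold change -2.87) and Mx1 (log2 fold change -2.63), which fell most in the set, were therefore not searched. The remaining genes with a core were Oas3, Bst2 and Trim30a.

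**Figure D1:**
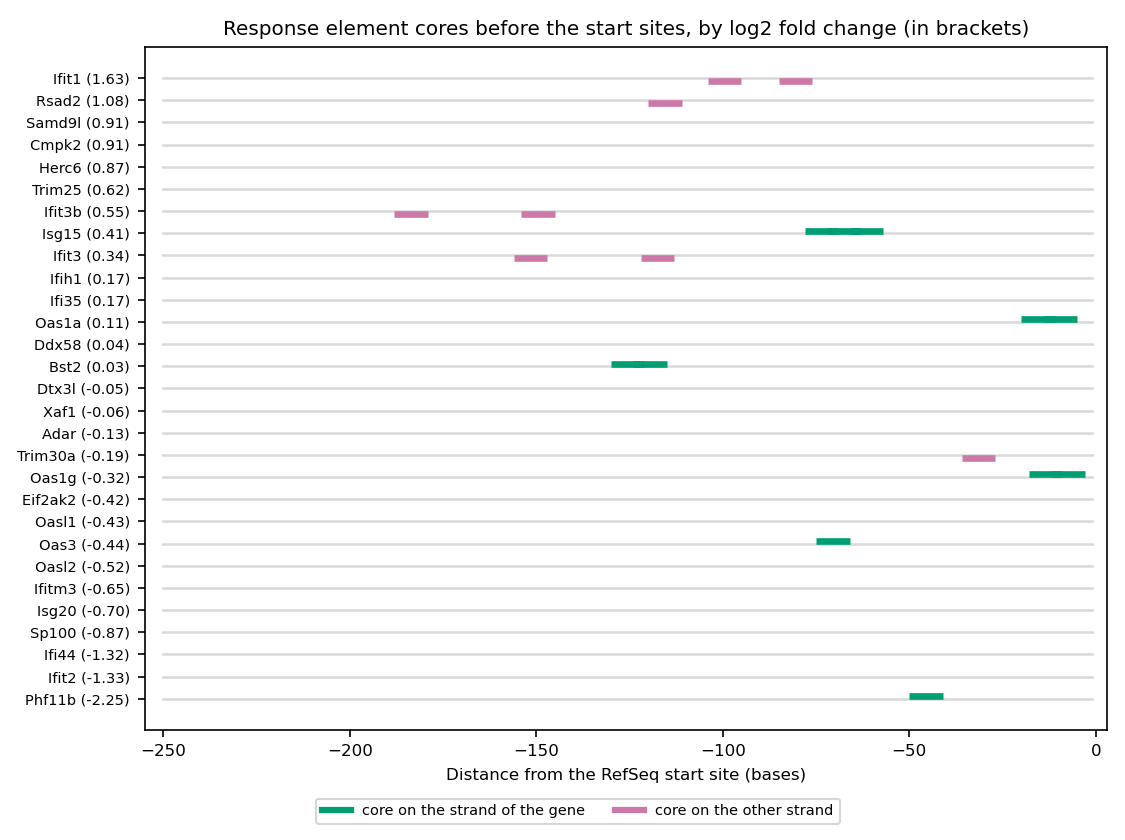
Positions of the response element core in the 250 bases before the RefSeq start site of 29 antiviral genes, ordered from the highest to the lowest log2 fold change in Adcy7 knockout over Rosa control, which stands in brackets after each name. The horizontal axis is the distance from the start site in bases, green bars are cores on the strand of the gene and pink bars are cores on the other strand, and the 11 genes with a core are spread from the top row (Ifit1, 1.63) to the bottom row (Phf11b, -2.25). Ifi27l2a and Mx1, which fell further than Phf11b, had no promoter entry and are not shown.

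The 4 libraries held between 61782358 and 71914179 counts assigned to genes, and 15832 genes were tested. Adcy7 itself was at 59.4 and 58.8 CPM (counts scaled to a common library total) in the knockout, against 122 and 125 CPM in the control, which is 48.4% of the control level (log2 fold change -1.05, SE 0.09, edgeR adjusted p = 4.6e-06). The position of the cut in the gene is not given in the sources used here. Over all tested genes, 25.0% were called higher and 24.6% lower in the knockout. Of 13 macrophage markers, 11 were lower in the knockout and 1 was higher. Their summed level was 22790 to 22990 CPM in knockout and 58110 to 59980 CPM in control libraries. Csf1r and Cd68 were present in every library, while C1qa and Mrc1 were each listed at 0 in 1 knockout library. Among markers of other cells, 6 of 7 tested eosinophil genes, 6 of 7 mast cell and basophil genes, 10 of 10 platelet genes, 7 of 8 B cell genes and 3 of 6 stromal genes were higher in the knockout. Of 11 neutrophil markers, 1 was higher and 5 were lower, of 8 conventional dendritic cell markers, 4 were higher and 2 were lower, and neither of the 2 tested T and NK cell markers passed. In these bulk samples, fewer cells of a type and less RNA per cell cannot be told apart.

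The antiviral genes did not move as a block. Of the 40, 9 were higher in the knockout, 16 were lower and 15 did not pass the test (edgeR quasi-likelihood, Benjamini-Hochberg adjusted over all tested genes, threshold 0.05). That is 62.5% past the threshold, against 49.6% of all genes tested. Higher calls made up 22.5%, against 25.0% of all genes, and lower calls made up 16 of 40, where 24.6% of all genes were lower. Without control replicate 2 there were 6 higher and 15 lower, and without control replicate 1 there were 10 higher and 11 lower. Calls of at least 2-fold were found for 7 of the 40 (17.5%), against 22.2% of all genes. The higher ones were Ifit1 and Rsad2, where 11.8% of all genes were that much higher, and the lower ones were Ifi27l2a, Mx1, Phf11b, Ifit2 and Ifi44, where 10.3% of all genes were that much lower. Among the 9486 genes within the expression range of the set, 58.8% passed the threshold, so the share of antiviral genes called lay close to that of genes with similar counts. The median log2 fold change of the 40 was -0.15, and that of all tested genes was 0.015. Individual values ran from -2.87 for Ifi27l2a to 1.63 for Ifit1. The knockout and control libraries did not overlap for 30 of the 40 genes (75.0%, against 75.2% of all genes), 10 with the knockout above, as for 37.4% of all genes, and 20 with the knockout below, as for 37.8% of all genes.

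**Figure D2:**
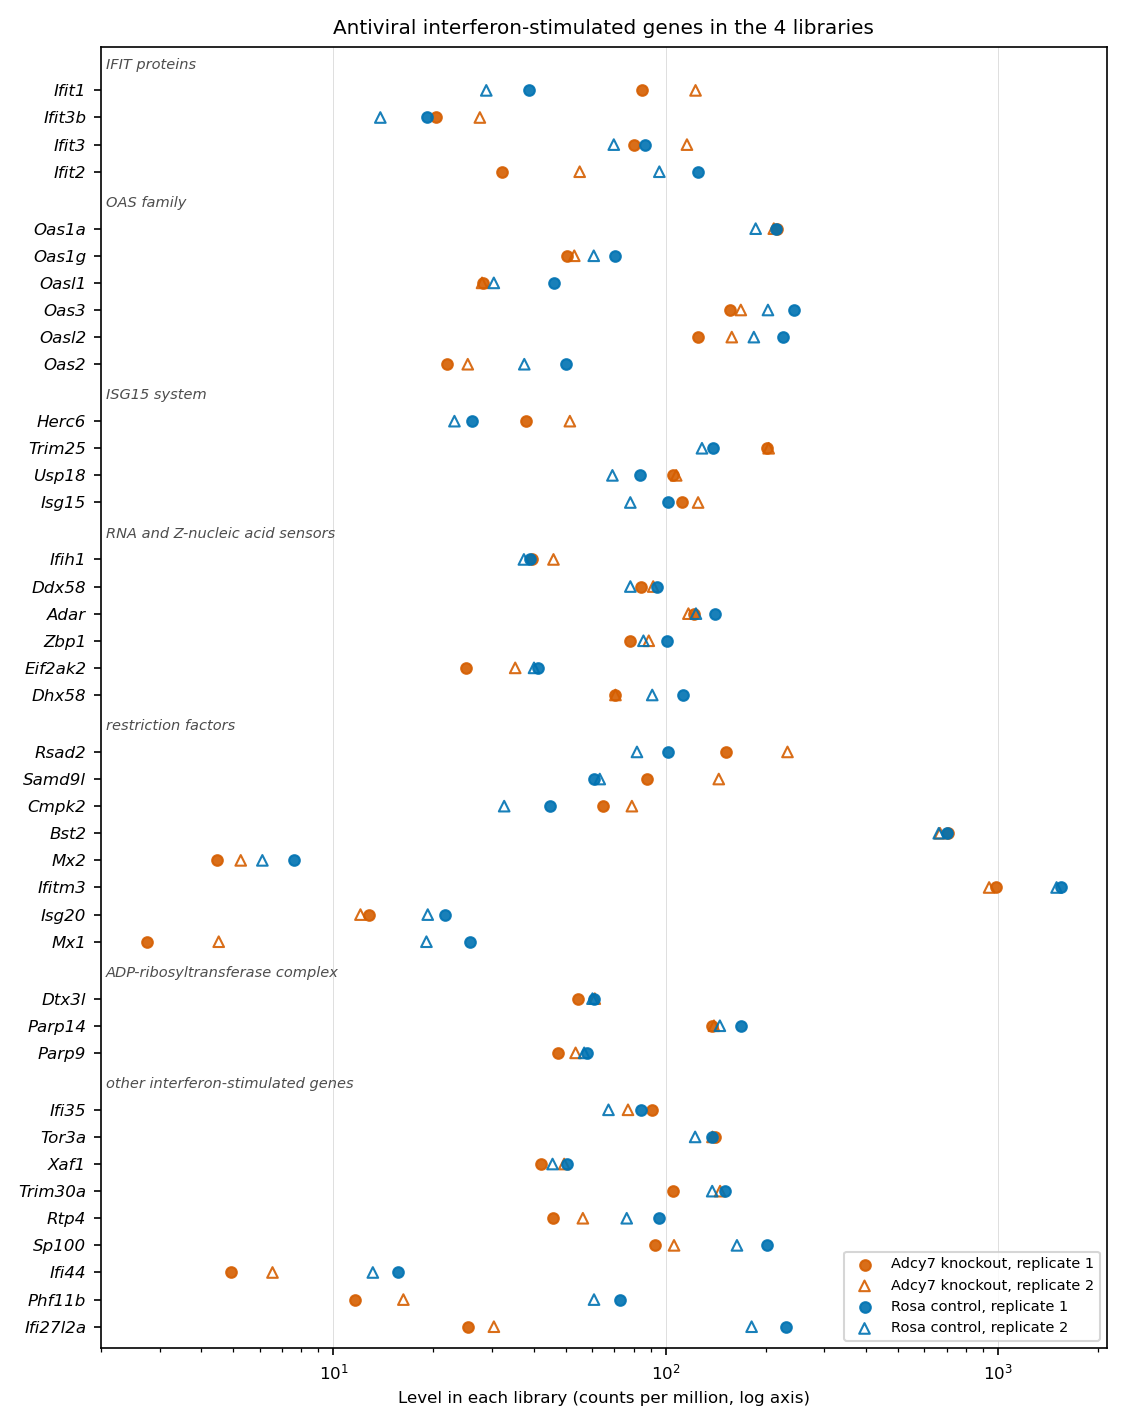
Level of each of the 40 antiviral genes in every library, in CPM on a log axis, grouped by role and ordered within a role by log2 fold change. Orange symbols are Adcy7 knockout and blue symbols Rosa control, circles replicate 1 and triangles replicate 2; orange lies right of blue for Ifit1 and the ISG15 system and left of blue for Mx1, Phf11b and Ifi27l2a, while the symbols of Bst2 and Oas1a lie together.

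The IFIT genes, which code for proteins that bind viral RNA ends and stop their translation, split in opposite directions inside 1 gene cluster. Ifit1, whose product recognises caps that lack the methyl mark of host mRNA, was at 84.7 and 123 CPM in the knockout libraries, against 38.8 and 28.8 CPM in the control libraries. Both knockout libraries lay above both control libraries, a 3.10-fold rise (log2 fold change 1.63, SE 0.17, edgeR adjusted p = 1.56e-05). Ifit2, whose product binds the Ifit1 and Ifit3 proteins, was at 32.2 and 55.1 CPM in the knockout, against 125 and 95.7 CPM in the control. The groups were again apart, in the other direction, and Ifit2 fell to 39.9% of the control level (log2 fold change -1.33, SE 0.20, edgeR adjusted p = 2.29e-04). The number of Ifit1 counts per Ifit2 count was 2.63 and 2.23 in the knockout, against 0.311 and 0.302 in the control. With both genes already apart in opposite directions, this ratio had to separate the groups and adds no support. Per kilobase of exon, Ifit1 ranked 9 among the 40 genes in the knockout (39.1 CPM per kilobase) and 25 in the control (12.7 CPM per kilobase), whereas Ifit2 ranked 28 in the knockout (11.1 CPM per kilobase) and 15 in the control (28.1 CPM per kilobase).

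Ifit3 and its near-copy Ifit3b lie between these genes on chromosome 19. Ifit3, which steadies Ifit1 on RNA, was at 80.2 and 116 CPM in knockout and 86.5 and 69.8 CPM in control libraries, and the groups overlapped. Its log2 fold change of 0.34 (SE 0.15) did not pass (edgeR adjusted p = 0.0868). Without knockout replicate 1 it passed at 0.56 (edgeR adjusted p = 0.00165), and without control replicate 1 at 0.48 (edgeR adjusted p = 0.0201). Ifit3b was at 20.3 and 27.6 CPM in knockout and 19.1 and 13.8 CPM in control libraries. The lower knockout library was close to the higher control library, and the log2 fold change was 0.55 (SE 0.17, edgeR adjusted p = 0.0208). That call was lost without knockout replicate 2 (log2 fold change 0.35, edgeR adjusted p = 0.0962) and without control replicate 2 (log2 fold change 0.35, edgeR adjusted p = 0.176). The longest open reading frames of Ifit3 and Ifit3b match at 1201 of 1212 bases (99.1%), so counts may be split between them and their single values are uncertain. Ifit1 and Ifit2 match at only 62.6% of aligned bases.

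The OAS family makes short oligoadenylates when it binds double-stranded RNA, a signal that leads to RNA breakdown. Of the 6 OAS genes listed in the set, 5 were lower in the knockout, none was higher and 1 did not pass. Over all genes, 24.6% were lower and 25.0% higher. The median log2 fold change of the 6 was -0.43. Oas1b and Oas1c were counted with the family relatives. Oas1b did not pass (log2 fold change 0.33, SE 0.22, edgeR adjusted p = 0.229), and Oas1c was lower (log2 fold change -0.97, SE 0.16, edgeR adjusted p = 4.15e-04). Oas2 was at 21.9 and 25.4 CPM in knockout and 50.0 and 37.5 CPM in control libraries, fully apart, with a log2 fold change of -0.87 (SE 0.14, edgeR adjusted p = 3.82e-04). Oas3, the adjacent gene and the largest enzyme of the family, was at 156 and 168 CPM in knockout and 242 and 203 CPM in control libraries. Its knockout libraries agreed more closely than its control libraries, and it fell by 0.44 on the log2 scale (SE 0.10, edgeR adjusted p = 0.0039). Without control replicate 1 this call was lost (log2 fold change -0.33, edgeR adjusted p = 0.102).

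Oasl2, an OAS-like protein with ubiquitin-like domains, was at 125 and 158 CPM in knockout and 226 and 184 CPM in control libraries. It fell by 0.52 on the log2 scale (SE 0.12, edgeR adjusted p = 0.00472), and the groups did not overlap. Oasl1, known in mouse to hold back translation of Irf7 mRNA, was at 28.2 and 28.0 CPM in knockout and 46.2 and 30.4 CPM in control libraries. Control replicate 2 lay near both knockout libraries, and the call was marginal (log2 fold change -0.43, SE 0.16, edgeR adjusted p = 0.0499). It was lost in 8 of 13 alternative settings, with an adjusted p of 0.0752 without knockout replicate 1, 0.0942 without knockout replicate 2 and 0.658 without control replicate 1 (edgeR). Oas1g was at 50.4 and 53.1 CPM in knockout and 70.3 and 60.7 CPM in control libraries (log2 fold change -0.32, SE 0.10, edgeR adjusted p = 0.0224), a call lost without control replicate 1 (log2 fold change -0.24, edgeR adjusted p = 0.291). Oas1a, its neighbour, was the most abundant family member per kilobase of exon, at 113 CPM per kilobase in the knockout and 107 CPM per kilobase in the control. Its 4 libraries held 216 and 211 CPM in the knockout and 215 and 186 CPM in the control, with overlap and no call (log2 fold change 0.11, SE 0.10, edgeR adjusted p = 0.383). Oas1a and Oas1g share 96.7% of their open reading frame and the core sequence shown above, so their counts are also uncertain.

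The 4 genes listed under the ISG15 system were all higher in the knockout, where 25.0% of all genes were higher. Uba7 and Ube2l6, which also act in Isg15 conjugation, were listed as partners and were not higher (values below). Isg15 is a ubiquitin-like protein that is joined to other proteins during infection. It was at 112 and 125 CPM in the knockout, against 102 and 78.2 CPM in the control (log2 fold change 0.41, SE 0.12, edgeR adjusted p = 0.0146). Herc6, the ligase that attaches Isg15 in mouse, was at 37.9 and 51.5 CPM in knockout and 26.2 and 23.1 CPM in control libraries, a 1.83-fold rise (log2 fold change 0.87, SE 0.14, edgeR adjusted p = 4.1e-04). Every knockout library was above every control library for both genes.

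Trim25, a ubiquitin ligase that also helps the RNA sensor Ddx58, was at 201 and 204 CPM in knockout and 139 and 129 CPM in control libraries. The replicates lay close together in each group and it rose 1.53-fold (log2 fold change 0.62, SE 0.09, edgeR adjusted p = 1.8e-04). Usp18, the protease that removes Isg15 and also damps signalling at Ifnar2, was at 105 and 108 CPM in knockout and 83.5 and 69.1 CPM in control libraries (log2 fold change 0.49, SE 0.10, edgeR adjusted p = 0.00244). Without control replicate 2 the calls of Isg15 (log2 fold change 0.25, edgeR adjusted p = 0.264) and Usp18 (log2 fold change 0.38, edgeR adjusted p = 0.0758) were lost, whereas those of Herc6 and Trim25 stood in every setting. Uba7, the activating enzyme that starts Isg15 conjugation, went the other way, at 69.7 and 60.8 CPM in knockout and 103 and 86.9 CPM in control libraries (log2 fold change -0.52, SE 0.11, edgeR adjusted p = 0.00308). Ube2l6, the conjugating enzyme that acts between Uba7 and Herc6, was at 108 and 109 CPM in knockout and 108 and 106 CPM in control libraries and did not pass (edgeR adjusted p = 0.751).

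**Figure D3:**
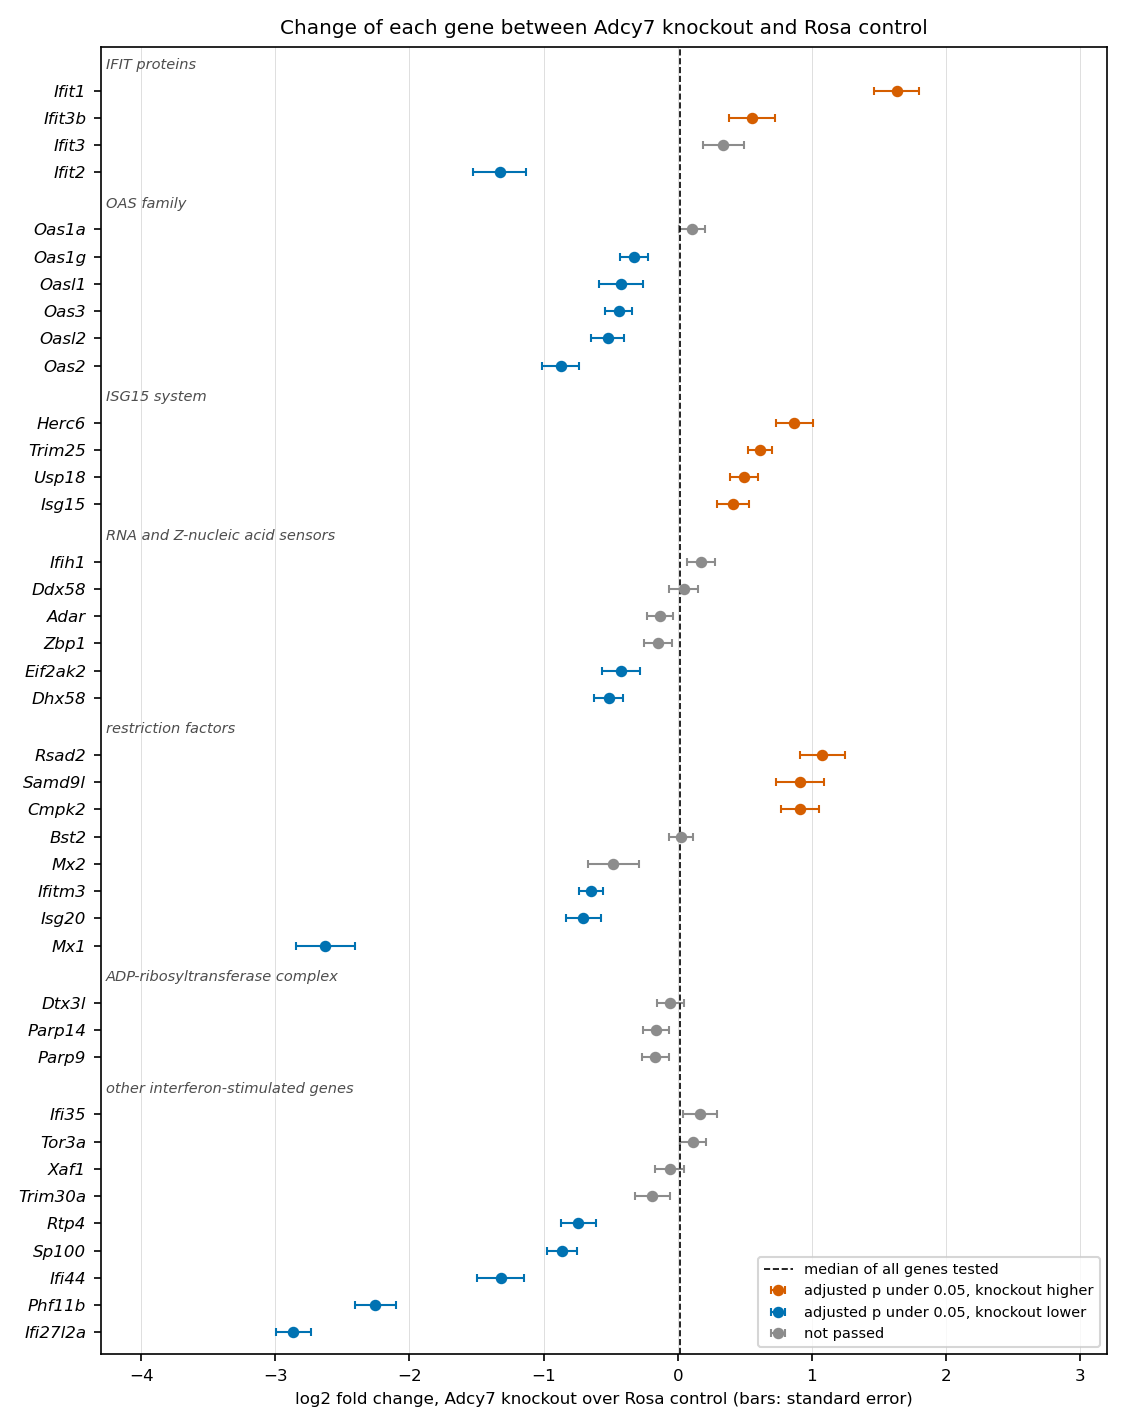
Log2 fold change of each antiviral gene in Adcy7 knockout over Rosa control, with bars of 1 standard error from the edgeR fit to 2 libraries a group. Orange points were higher and blue points lower at an adjusted p under 0.05, grey points did not pass, and the dashed line is the median of all tested genes (0.015). The 4 genes listed under the ISG15 system lie right of it and 5 of the 6 listed OAS genes are blue on the left. Uba7, Ube2l6, Oas1b and Oas1c are in other lists and are not shown.

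Of the 6 sensors of viral or altered nucleic acid, 2 were lower (24.6% of all genes were), none was higher and 4 did not pass. Ddx58, the RIG-I receptor for short double-stranded and uncapped RNA, was at 84.3 and 91.7 CPM in knockout and 94.4 and 78.3 CPM in control libraries. Ifih1, the MDA5 receptor for long double-stranded RNA, was at 39.5 and 45.9 CPM in knockout and 39.0 and 37.4 CPM in control libraries. The log2 fold change was 0.043 for Ddx58 (SE 0.11, edgeR adjusted p = 0.763) and 0.17 for Ifih1 (SE 0.11, edgeR adjusted p = 0.206), and neither passed.

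Dhx58, the LGP2 helicase that modulates both receptors, was at 70.5 and 70.6 CPM in knockout and 113 and 91.1 CPM in control libraries. It fell to 70.0% of the control level (log2 fold change -0.52, SE 0.11, edgeR adjusted p = 0.0026), a call lost without control replicate 1 (log2 fold change -0.38, edgeR adjusted p = 0.068). Eif2ak2, the kinase PKR that halts translation when it binds double-stranded RNA, was at 25.0 and 35.2 CPM in knockout and 41.2 and 40.1 CPM in control libraries (log2 fold change -0.42, SE 0.14, edgeR adjusted p = 0.0279). Its knockout libraries differed more than its control libraries. Without knockout replicate 1 the log2 fold change was -0.21 (edgeR adjusted p = 0.116), and the call was also lost without control replicate 1 (edgeR adjusted p = 0.0511) or control replicate 2 (edgeR adjusted p = 0.0607). Zbp1, a sensor of Z-form nucleic acid that can trigger necroptosis, had a log2 fold change of -0.15 (SE 0.11, edgeR adjusted p = 0.28). Adar, which edits adenosine in double-stranded RNA and so keeps self RNA from these sensors, had one of -0.13 (SE 0.10, edgeR adjusted p = 0.298).

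The 8 restriction factors moved in both directions, with 3 higher, 3 lower and 2 not passed, against 25.0% higher and 24.6% lower over all genes. Rsad2, or viperin, which makes a nucleotide that ends viral RNA chains, was at 152 and 232 CPM in the knockout and at 102 and 81.9 CPM in the control. It rose 2.11-fold (log2 fold change 1.08, SE 0.17, edgeR adjusted p = 2.91e-04), although knockout replicate 2 stood well above knockout replicate 1. Cmpk2, the nucleotide kinase gene next to Rsad2 on chromosome 12 on the opposite strand, was at 64.9 and 79.1 CPM in the knockout and at 44.7 and 32.6 CPM in the control. It rose 1.88-fold (log2 fold change 0.91, SE 0.14, edgeR adjusted p = 3.23e-04), so both genes of this adjacent pair were higher.

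Samd9l, which restricts poxviruses and cell growth, was at 87.5 and 144 CPM in knockout and 60.6 and 63.3 CPM in control libraries. Its log2 fold change was 0.91 (SE 0.18, edgeR adjusted p = 0.0014), and without knockout replicate 2 it was 0.54 (edgeR adjusted p = 2.71e-04). Mx1, a dynamin-like GTPase that traps influenza ribonucleoproteins, was at 2.74 and 4.52 CPM in knockout and 25.8 and 19.0 CPM in control libraries. The 4 libraries held 197 and 279 counts in the knockout and 1698 and 1331 counts in the control. Mx1 fell to 16.2% of the control level (log2 fold change -2.63, SE 0.22, edgeR adjusted p = 2.77e-06). As background, the Mx1 allele of C57BL/6 mice carries a deletion and gives no working protein. Mx2, its cytoplasmic relative, is annotated as a polymorphic pseudogene. Its RNA was low in all libraries, at 4.48 and 5.26 CPM in knockout and 7.59 and 6.11 CPM in control libraries. Mx2 did not pass (log2 fold change -0.48, SE 0.19, edgeR adjusted p = 0.0603). The open reading frames of Mx1 and Mx2 match at 82.2% of aligned bases. Rsad2 counts per Mx1 count were 55.3 and 51.5 in the knockout, against 3.94 and 4.30 in the control. This ratio sets a gene called higher over one called lower, so its separation of the groups was fixed beforehand.

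Isg20, an exonuclease that degrades viral RNA, was at 12.8 and 12.1 CPM in knockout and 21.7 and 19.2 CPM in control libraries, and fell by 0.70 on the log2 scale (SE 0.13, edgeR adjusted p = 0.00108). Ifitm3, which stiffens endosomal membranes against viral fusion, was the most abundant of the 40 genes per kilobase of exon in both groups, at 1421 CPM per kilobase in the knockout and 2249 CPM per kilobase in the control. Its libraries held 987 and 940 CPM in the knockout and 1550 and 1500 CPM in the control, tightly grouped, and it fell to 63.9% of the control level (log2 fold change -0.65, SE 0.09, edgeR adjusted p = 1.52e-04). Bst2, or tetherin, which holds budding virions on the membrane, ranked 2 in both groups per kilobase. It was at 706 and 669 CPM in knockout and 702 and 663 CPM in control libraries and did not pass (log2 fold change 0.027, SE 0.09, edgeR adjusted p = 0.832). Because Ifitm3 and Bst2 supply much of the total, the summed level of the set was taken with and without them. It was 4507 and 4870 CPM in knockout and 5839 and 5182 CPM in control libraries with them, and without them the other 38 genes summed to 2814 and 3261 CPM in knockout and 3587 and 3019 CPM in control libraries, which overlap.

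Parp9, Dtx3l and Parp14 are neighbours on chromosome 16. The Parp9 protein forms a complex with the ubiquitin ligase Dtx3l, and Parp14 adds single ADP-ribose units to proteins. None of the 3 passed. Parp9 was at 47.5 and 53.5 CPM in knockout and 57.8 and 56.8 CPM in control libraries (log2 fold change -0.17, SE 0.10, edgeR adjusted p = 0.19). The log2 fold change was -0.054 for Dtx3l (SE 0.10) and -0.16 for Parp14 (SE 0.10).

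The 9 other interferon-stimulated genes held the lowest log2 fold change of the set, with 5 lower, none higher and 4 not passed, where 24.6% of all genes were lower and 25.0% higher. Their median log2 fold change was -0.74. Ifi27l2a, a small hydrophobic interferon-induced membrane protein, was at 25.4 and 30.4 CPM in knockout and 229 and 181 CPM in control libraries. It fell to 13.7% of the control level, the lowest share in the set (log2 fold change -2.87, SE 0.13, edgeR adjusted p = 2.72e-08). In the control it ranked 3 of the 40 per kilobase of exon, at 444 CPM per kilobase, and in the knockout it was at 60.3 CPM per kilobase. Phf11b, a PHD finger gene of a rodent cluster, was at 11.6 and 16.2 CPM in knockout and 72.8 and 60.8 CPM in control libraries, and fell to 21.0% of the control level (log2 fold change -2.25, SE 0.15, edgeR adjusted p = 4.59e-07). Its relatives Phf11a and Phf11d share 97.0% and 90.1% of the aligned open reading frame, so its counts are uncertain. Phf11a was itself at 3.13 and 2.04 CPM in knockout and 26.2 and 22.1 CPM in control libraries (log2 fold change -3.19, SE 0.20, edgeR adjusted p = 2.67e-07).

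Ifi44 was at 4.91 and 6.56 CPM in knockout and 15.6 and 13.1 CPM in control libraries (log2 fold change -1.32, SE 0.18, edgeR adjusted p = 9.73e-05). The groups were well apart. Ifit1 counts per Ifi44 count were 17.3 and 18.8 in the knockout, against 2.48 and 2.20 in the control. As Ifit1 and Ifi44 were already apart in opposite directions, that ratio also had to separate the groups. Sp100, a scaffold of nuclear bodies that restrain viral genomes, was at 92.7 and 106 CPM in knockout and 202 and 164 CPM in control libraries, and fell to 54.9% of the control level (log2 fold change -0.87, SE 0.11, edgeR adjusted p = 7.74e-05). Rtp4, a Golgi-linked chaperone that blocks flaviviruses, was at 45.7 and 56.3 CPM in knockout and 95.7 and 76.3 CPM in control libraries (log2 fold change -0.74, SE 0.13, edgeR adjusted p = 6.2e-04). No library of one group entered the range of the other for these genes. The 4 that did not pass were Xaf1, a promoter of cell death (log2 fold change -0.059), Trim30a, a brake on NF-kB signalling (-0.19), Ifi35, which pairs with Nmi (0.17), and the torsin ATPase gene Tor3a (0.11). Trim30a passed as lower without knockout replicate 2 (log2 fold change -0.41, edgeR adjusted p = 0.00203), and Ifi35 passed as higher without the same library (log2 fold change 0.31, edgeR adjusted p = 0.0371). Trim30a shares 90.2% of its open reading frame with Trim30d.

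Replicates of 1 group differed in these genes more in step than genes at large did. Knockout replicate 2 was above knockout replicate 1 for 32 of the 40 genes (80.0%), against 55.1% of all tested genes. The median log2 ratio of knockout replicate 2 over knockout replicate 1 was 0.20 for the set and 0.038 for all genes. In the control, replicate 1 was above replicate 2 for 39 of the 40 genes (97.5%), against 54.3% of all genes. Replicate 2 was above replicate 1 for 1 of the 40, Samd9l, against 44.2% of all genes. The median log2 ratio of control replicate 2 over control replicate 1 was -0.26 for the set and -0.022 for all genes. Counted against the median of all genes, 28 knockout ratios were above it and 38 control ratios were below it. Within a group the genes thus differed mostly in one shared direction, whereas between the groups Ifit1 and Rsad2 were higher and Ifi27l2a, Mx1, Phf11b, Ifit2 and Ifi44 were lower. The range of the median over the 4 fits that left out 1 library was -0.23 to -0.073.

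**Figure D4:**
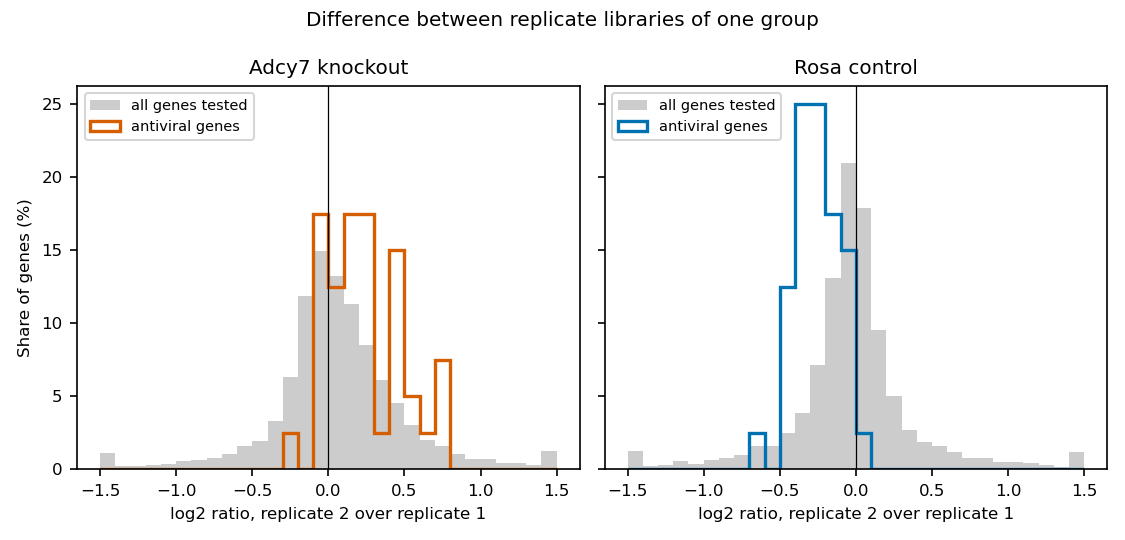
Distribution of the log2 ratio of replicate 2 over replicate 1 within Adcy7 knockout (left) and within Rosa control (right), as the share of genes in percent, with a pseudocount of 0.1 CPM. Grey bars are all 15832 tested genes and outlines are the 40 antiviral genes; the outline sits right of 0 for most genes in the knockout panel and left of 0 for 39 of 40 genes in the control panel.

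Counts of the interferon genes themselves were few. Of 18 type I interferon genes, 14 had no count in any library and only Ifnb1 passed the filter. Ifnb1, the interferon that macrophages release first, had 34 and 76 counts in the knockout, against 13 and 0 counts in the control. A 0 among these estimated counts does not show that the RNA was absent. Knockout replicate 2 and control replicate 1, the higher library of each group for most antiviral genes, were also the higher ones for Ifnb1. That match rests on 2 libraries a group and few counts, and a link was not tested. The call (log2 fold change 3.10, SE 0.89, edgeR adjusted p = 0.0139) rested on these few counts. It was lost without knockout replicate 2 (edgeR adjusted p = 0.111), without control replicate 2 (edgeR adjusted p = 0.0554) and without a low-count filter (edgeR adjusted p = 0.0887).

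Of 11 tested genes of the receptor and of ISGF3, 6 were lower and 3 were higher, against 24.6% and 25.0% of all genes, and 2 did not pass. The share higher was near that of all genes, and the median log2 fold change was -0.26. Ifnar1 was at 82.5 and 95.8 CPM in knockout and 155 and 151 CPM in control libraries (log2 fold change -0.77, SE 0.10, edgeR adjusted p = 6.91e-05). Ifnar2 was at 217 and 235 CPM in knockout and 191 and 190 CPM in control libraries (log2 fold change 0.26, SE 0.09, edgeR adjusted p = 0.0306). The receptor chains thus moved in opposite directions. Stat2, a subunit of ISGF3, was at 76.3 and 75.9 CPM in knockout and 134 and 102 CPM in control libraries (log2 fold change -0.61, SE 0.12, edgeR adjusted p = 0.00153). Irf9, the subunit that gives ISGF3 its DNA specificity, had a log2 fold change of -0.24 and did not pass (SE 0.10, edgeR adjusted p = 0.0543). Ifngr1, a chain of the receptor for interferon gamma, fell by 1.97 on the log2 scale (SE 0.09, edgeR adjusted p = 3.62e-08), and Ptpn6, a phosphatase that quiets the pathway, fell by 1.02 (SE 0.09, edgeR adjusted p = 3.21e-06).

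Of 18 upstream nucleic acid sensing genes, 9 were lower and 5 were higher, against 24.6% and 25.0% of all genes, and 4 did not pass. The share higher was near that of all genes, and without control replicate 1 the higher ones numbered 3. Irf5, a factor that drives interferon genes, was at 55.3 and 51.7 CPM in knockout and 229 and 220 CPM in control libraries, and Tlr9, the receptor for microbial DNA, was at 5.41 and 6.57 CPM in knockout and 35.7 and 30.7 CPM in control libraries. Irf5 fell by 2.05 (SE 0.10) and Tlr9 by 2.46 (SE 0.15) in log2 units, while Ticam2, an adaptor of Tlr4, rose 3.43-fold (SE 0.11 in log2 units). Of 14 partners of the antiviral proteins, 4 were higher and 5 lower, against 25.0% and 24.6% of all genes. Ppp1r15a, which undoes the translational block set by Eif2ak2, rose 3.21-fold, to 137 and 131 CPM in knockout libraries, against 42.3 and 42.2 CPM in control libraries. Samhd1, which depletes nucleotides, fell by 1.40 on the log2 scale (SE 0.10), and Zc3hav1, which binds CpG-rich viral RNA, rose 1.89-fold.

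Family relatives of the set showed 3 higher and 12 lower of 24 tested, against 25.0% and 24.6% of all genes, with a median log2 fold change of -0.41. Ifitm6 was at 60.6 and 61.8 CPM in knockout and 342 and 361 CPM in control libraries (log2 fold change -2.51, SE 0.10, edgeR adjusted p = 7.62e-09), and Ifitm1 fell by 1.41 (SE 0.09), so both relatives changed in the same direction as Ifitm3. Another 27 genes induced by type I interferon had 3 higher and 13 lower, against the same shares of all genes, with a median of -0.40, and without knockout replicate 1 the higher ones numbered 5. Ms4a4c, a membrane protein gene, was at 2.02 and 2.23 CPM in knockout and 32.2 and 24.8 CPM in control libraries. Apobec3, a cytidine deaminase that mutates retroviral DNA, was at 41.6 and 43.1 CPM in knockout and 159 and 146 CPM in control libraries. Ly6e, which blocks coronavirus entry, was at 915 and 855 CPM in knockout and 2842 and 2564 CPM in control libraries. The log2 fold changes of these genes were -3.73 (SE 0.19), -1.83 (SE 0.10) and -1.59 (SE 0.10), each past the edgeR threshold.

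Genes that lean towards interferon gamma had 7 higher and 3 lower of 11 tested, against 25.0% and 24.6% of all genes, so the share lower was near that of all genes. Their median log2 fold change was 1.29, and that of the antiviral set was -0.15. Cd274, the PD-L1 checkpoint ligand, was at 323 and 414 CPM in knockout and 40.6 and 39.4 CPM in control libraries, and Gbp2, a guanylate-binding protein, was at 131 and 152 CPM in knockout and 26.2 and 18.7 CPM in control libraries. Cd274 rose 9.30-fold and Gbp2 rose 6.37-fold, while Irf8, a lineage factor of monocytes, fell by 1.66 on the log2 scale (SE 0.09). The other genes called lower were Iigp1 (log2 fold change -2.49, SE 0.57) and Irf1 (log2 fold change -0.48, SE 0.11). Cxcl9, the listed gene that was not tested, had 4 and 8 counts in knockout and 8 and 9 counts in control libraries. No test of the difference between these lists was made. Many of these genes respond to other signals too, so the lists are not separate pathways.

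**Figure D5:**
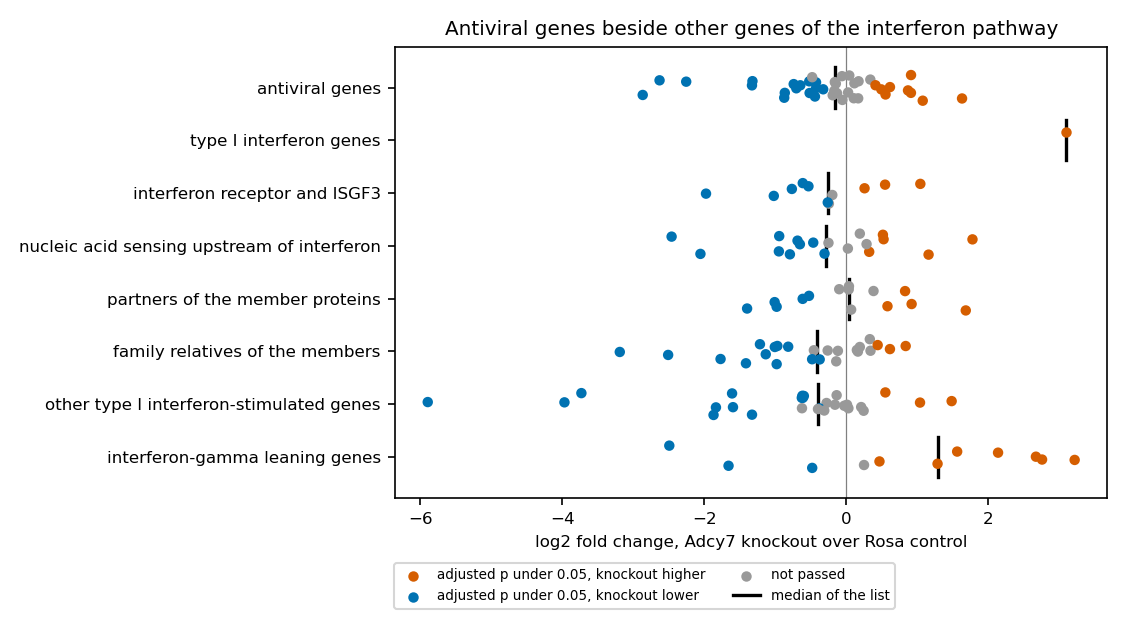
Log2 fold change of Adcy7 knockout over Rosa control for each tested gene of the antiviral set and of 7 related lists, 1 point a gene with vertical scatter added for legibility. Orange points were higher and blue points lower at an adjusted p under 0.05, grey points did not pass and black bars mark list medians, which run from -0.41 for family relatives to 1.29 for the interferon-gamma leaning genes, apart from the single tested interferon gene at 3.10.

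Plasmacytoid dendritic cells are specialised interferon producers, and their markers were read as well. Of 10 listed, 7 were tested, 2 were higher and 2 lower, against 25.0% and 24.6% of all genes. The higher ones were Spib (12.9-fold) and Ly6d (15.2-fold). The lower ones were Lair1 (57.4% of the control level) and Tcf4 (77.8%). The summed level of the 10 markers was 111.6 to 123 CPM in knockout and 148.5 to 163.5 CPM in control libraries. Most of that sum was Lair1, at 65.4 and 73.5 CPM in knockout and 114 and 130 CPM in control libraries. Klk1 was at 0 in every library and Siglech was at 0 in both knockout libraries and in control replicate 1. Neutrophil markers, which include abundant granule genes, summed to 5984 to 7629 CPM in knockout and 6318 to 7597 CPM in control libraries, and eosinophil markers to 221.9 to 280.7 CPM in knockout and 30.9 to 34.0 CPM in control libraries. The part of other cell types in the changes of the antiviral genes was not tested.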

How the data were processed

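RNA was measured by poly(A) RNA sequencing in 2 Adcy7 knockout and 2 Rosa control libraries. The authors deposited estimated counts per gene for 55401 gene IDs. Build GRCm39 and the tools HISAT2, StringTie, fastp and edgeR are named, with no versions, per the submitters' processing notes. All deposited counts were whole numbers. Of counts from 1 to 40, between 30.54% and 32.17% per library were multiples of 4, against 25% with no step. The knockout columns were matched to samples by their group and number. Whether reads were counted by strand is not stated, so overlapping and antisense genes cannot be told apart.

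Symbols came from a GENCODE M21 (GRCm38) table, which named 55141 IDs. For the 106 symbols shared by several IDs, the ID with most counts was used. Exon lengths came from the same annotation. CPM are scaled to the total of the deposited counts of a library, with no further factor, and log2 fold changes are on TMM-scaled counts, so the 2 can differ slightly.

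Tests used edgeR 4.0.16 in R 4.3.3 (filterByExpr, TMM, the bias-adjusted quasi-likelihood test, group only, 2 residual degrees of freedom), with Benjamini-Hochberg adjustment over 15832 genes and a threshold of 0.05. The standard error is the absolute log2 fold change divided by the square root of the F statistic. The fit was also run on simulated counts, with few changed genes and the same dispersion for every gene. Those settings differ from these data, so that run does not show how reliable the p-values are here. DESeq2 1.42.0 and other alternatives are in the closing section. With depths between 61782358 and 71914179 counts, the lowest count of an antiviral gene in a library was 197. Identity between relatives was aligned with Biopython 1.88 over the longest open reading frames.

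The set, its role groups and the related lists were chosen with earlier results of these data known. All 40 genes are named, and in each related list up to 3 genes with the smallest adjusted p. Ifnar2, Stat2, Irf9, Uba7 and Ube2l6 were added for their roles, after their values were seen. Cxcl9, Iigp1, Irf1, Oas1b and Oas1c were also added after their values were seen.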

Additional observations from a re-analysis of the deposited data

How the results depend on the processing

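Across 13 alternatives (3 other scalings, DESeq2, 2 other filters, counts divided by 4, the replicate block, 4 fits without 1 library and the earlier edgeR quasi-likelihood method, the last chosen after seeing the data), the counts of antiviral genes stayed within 1.5 times of 9 higher and 16 lower. Without a low-count filter they were 7 and 12, and with DESeq2 10 and 16. Leaving out 1 library gave 6 to 10 higher and 11 to 16 lower. Of 25 called genes, 16 kept the call throughout, 9 lost it in at least 1 alternative and none reversed. The 9 were Ifit3b, Oas1g, Oas3, Oasl1, Oasl2, Isg15, Usp18, Dhx58 and Eif2ak2. Among genes without a call, the log2 fold change changed sign for 5 when 1 library was left out, with ranges of -0.075 to 0.16 for Ddx58, -0.035 to 0.096 for Bst2, -0.11 to 0.0097 for Dtx3l, -0.15 to 0.036 for Xaf1 and -0.41 to 0.0083 for Trim30a. Deviations of libraries with the same replicate number had a correlation of 0.0137 over all tested genes. This value cannot decide whether the replicate numbers pair the samples, and the labels do not say. With the replicate block 9 genes were higher and 16 lower, with a median of -0.15. Ifnb1 could not be tested with at least 1 CPM in 2 libraries or with counts divided by 4, and the earlier method gave it an adjusted p of 0.0528. Low counts limit Ifnb1, and 2 libraries a group limit every p.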
